A study of Mus musculus with 39 samples.

Results

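Zscan4c, Zscan4d, Zscan4f, Zfp352, Tcstv1 and Tcstv3 are genes of the 2-cell-like state, and they were placed on maps of nucleosome wrapping and of replication timing in mouse embryonic stem (ES) cells. These 6 genes were chosen by name, out of 21938 protein-coding genes on 21 chromosomes, and lie at 3 loci. Earlier results of these data were known when they were chosen. The maps are 2 lists of domains from wild-type R1 cells, a mouse ES cell line grown in serum with leukemia inhibitory factor. No group of the study used here differed in genotype or treatment. The wrapping list came from H3-wrapping-seq, with 4 libraries of 2 experiments, in which crosslinked chromatin was digested with MNase and the nucleosomes were recovered with an antibody against histone H3. The timing list came from 8 libraries, the S1 to S4 fractions of S phase in 2 experiments, with newly made DNA labelled by BrdU. Each list holds 1 value for a domain and neither replicates nor read numbers, so the depth behind a domain's value is unknown, no error can be attached to it, and no difference between domains could be tested.

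In the early mouse embryo, the 2-cell stage is when the embryo's own genome is first switched on. A small minority of ES cells passes for a short time into a state with the transcripts of that stage, among them Zscan4, Zfp352 and the Tcstv genes, while the other cells of the culture keep these genes nearly silent. The transcription factor DUX is known to switch on this program, and several chromatin factors are known to hold it down. All values below are averages over the whole culture and over whole domains, so that neither the rare cells nor the single genes were resolved.

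A wrapping domain (NRD) is a run of 100 kb bins in which long fragments are over-represented (a tight domain, TiNRD, with a score above 0) or short fragments are (a loose domain, LoNRD, with a score below 0). The score is a z-score over bins and has no unit. A timing domain is a run of 50 kb windows with more DNA copied in the first part of S phase (early, a log2 value above 0) or in the last part (late, below 0). The lists held 632 TiNRDs, 611 LoNRDs, 832 early and 979 late domains. Their median values were 0.47, -0.48, 0.70 and -0.73, respectively. The authors report more wrapping domains of each kind for their H3 map, with a shorter median length, than this list holds. The sources used here do not give the reason.

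The 3 loci fell into 3 different combinations. Zscan4c, Zscan4d and Zscan4f lay in a TiNRD that was late replicating. Zfp352 lay in a LoNRD that was late replicating. Tcstv1 and Tcstv3 lay in a TiNRD that was early replicating. In all, 5 of the 6 genes were in TiNRDs, where 76.9% of all protein-coding genes were, and 1 was in a LoNRD, against 21.9%. In late domains there were 4 of the 6, against 22.5% of all protein-coding genes, and 2 were in early domains, against 73.7%. The tight and late combination held 3 of the 6, against 7.88%, the loose and late combination held 1, against 14.2%, and the tight and early one held 2, against 66.9%. Genes of a locus share their domain, so that the 6 genes are 3 observations.

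**Figure D1:**
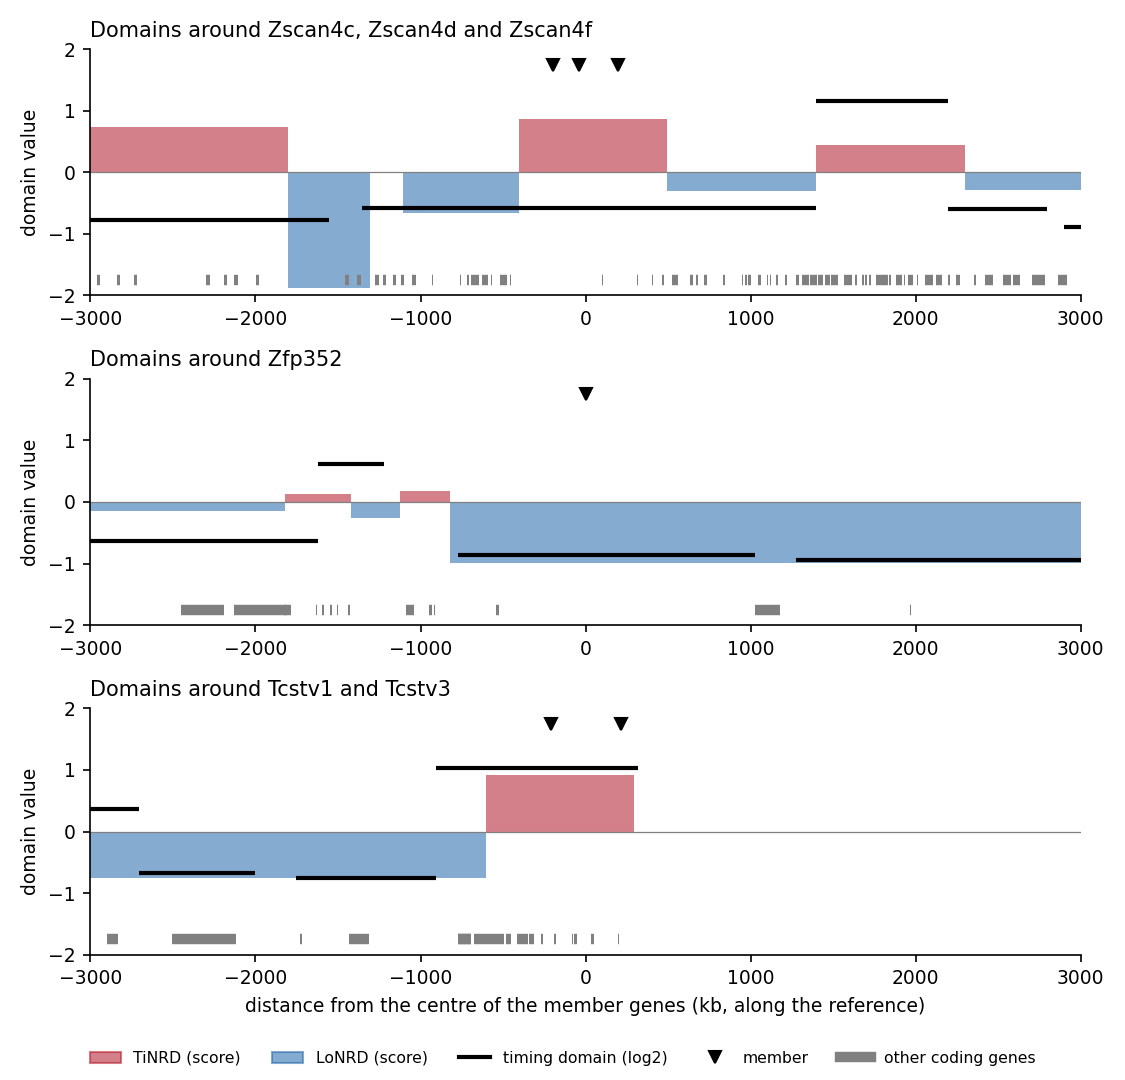
Domains within 3000 kb of each locus, against the distance in kb from the centre of the member genes. Filled blocks are wrapping domains (red, TiNRD; blue, LoNRD; height, the score), black lines are timing domains (height, the log2 value), triangles are the member genes and grey bars are other protein-coding genes. The red block under the Zscan4 genes lies inside a black line below 0, the block under Zfp352 and its line are both below 0, and the block and line at the Tcstv genes are both above 0.

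The promoters are shown because the 3 Zscan4 genes carry nearly the same one, while Zfp352 has an internally repeated one, which was not aligned to theirs. The sequences are RefSeq's of GRCm38.p6, read on the gene's strand up to the base before the annotated start, and 4 of the 6 genes had an entry. Tcstv1 and Tcstv3 had none. Comparisons and motif searches used the 250 bases before the RefSeq start, of which 239 are shown for Zscan4d, where the GENCODE gene starts earlier. The Zscan4c window is chr7:11005495-11005744 (plus strand), the Zscan4d window chr7:11166160-11166398 (minus strand) and the Zscan4f window chr7:11397665-11397914 (plus strand), and their capitals mark the TATAAA box. The Zfp352 window is chr4:90218570-90218819 (plus strand), and its capitals mark the copies of its most frequent word of 12 bases.
Zscan4c: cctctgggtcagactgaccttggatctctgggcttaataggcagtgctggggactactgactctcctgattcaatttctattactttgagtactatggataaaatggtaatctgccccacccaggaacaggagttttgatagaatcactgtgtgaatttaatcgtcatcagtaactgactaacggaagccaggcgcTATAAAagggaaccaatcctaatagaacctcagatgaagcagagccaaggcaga
Zscan4d: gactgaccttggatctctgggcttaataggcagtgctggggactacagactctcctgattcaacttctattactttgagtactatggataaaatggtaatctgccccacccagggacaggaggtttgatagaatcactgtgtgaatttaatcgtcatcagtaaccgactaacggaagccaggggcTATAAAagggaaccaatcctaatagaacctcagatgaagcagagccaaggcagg
Zscan4f: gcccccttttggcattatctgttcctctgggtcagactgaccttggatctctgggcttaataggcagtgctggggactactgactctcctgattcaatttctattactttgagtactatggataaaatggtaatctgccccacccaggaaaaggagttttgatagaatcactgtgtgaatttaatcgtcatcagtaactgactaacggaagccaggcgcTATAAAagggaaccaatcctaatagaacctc
Zfp352: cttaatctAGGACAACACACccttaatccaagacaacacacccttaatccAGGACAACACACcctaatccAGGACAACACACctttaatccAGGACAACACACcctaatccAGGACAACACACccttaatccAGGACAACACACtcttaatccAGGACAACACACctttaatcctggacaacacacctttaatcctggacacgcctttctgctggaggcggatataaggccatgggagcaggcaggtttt

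The Zscan4 windows each held 1 TATAAA box, which began 54 bases before the annotated gene start in Zscan4c and Zscan4d and 31 bases before it in Zscan4f. Over the 250 bases before each RefSeq start, Zscan4c and Zscan4f differed at 1 of 227 aligned bases, Zscan4c and Zscan4d at 7 of 239, and Zscan4d and Zscan4f at 7 of 216. TATAAA was found on either strand in 12.4% of all 32851 RefSeq promoter windows of this length. The Zfp352 window held no TATAAA. It held 7 exact copies of its 12-base word, with starts 20 to 42 bases apart, and 0.113% of all windows held 7 or more copies of any word of that length. A further pair of motifs was searched on both strands, TGCACAC, a site known for ZSCAN4, and GATTNAATC, the core of a paired homeobox site of the kind DUX binds. Neither occurred in the 4 windows, and they occurred in 3.67% and 0.247% of all windows. No match says only that these letters are not within 250 bases of the start.

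The Zscan4 genes encode proteins with a SCAN domain and zinc fingers, known for their part in telomere maintenance in ES cells. Zscan4c is at chr7:11005745-11010547 on the plus strand, Zscan4d at chr7:11161374-11166159 on the minus strand and Zscan4f at chr7:11397915-11402318 on the plus strand of mm10. Each has 4 exons and 1518 coding bases in the GENCODE annotation. They are part of an array of 9 annotated Zscan4 genes and pseudogenes that spans 819.9 kb, each 4.3 to 4.8 kb long, with 54.6 to 140.2 kb between neighbours.

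The TiNRD that holds them, chr7:10800001-11700000, was 900 kb long and had a score of 0.87. It began 5.8 kb after the first gene of the array did and ended 85.9 kb after the last one. It thereby covered 8 of the 9 genes. The exception was Zscan4a, an annotated pseudogene, whose midpoint lay 3.4 kb outside. That is far less than a bin of 100 kb, so bins of this size do not resolve on which side Zscan4a lies. On both sides the TiNRD touched a LoNRD, of 700 kb with a score of -0.65 before it and of 900 kb with a score of -0.30 after it. Of all TiNRDs, 85.3% had a lower score, but only 51.1% of the protein-coding genes in TiNRDs were in a domain with a lower one. Its length was close to the median TiNRD of 1050 kb, and 42.7% of TiNRDs were shorter. The authors smoothed the index over 10 bins of 100 kb before they called domains, a span slightly longer than this TiNRD.

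Timing did not follow the change of wrapping. A single late domain of 2750 kb, chr7:9850001-12600000, with a log2 value of -0.58, ran over the TiNRD and over both LoNRDs. It was a moderately late domain, with 33.6% of late domains closer to 0. The next domain, starting where the second LoNRD ended, was early with a log2 value of 1.16. Of all TiNRDs, 66 (10.4%) lay with their whole length in late domains, 46 of them on autosomes. Their median score was 0.24 and their median length 400 kb. The score of the Zscan4 TiNRD was exceeded by 6 of them, of which 3 were on autosomes.

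Other genes in the Zscan4 TiNRD were few. It held 9 protein-coding genes, and all but Vmn1r72, a vomeronasal receptor, belonged to the array. Zscan4b and Zscan4e shared both domain values with the members, and so did Zscan4-ps1, Zscan4-ps2 and Zscan4-ps3, which GENCODE lists as protein-coding despite their names. The next genes before the array, Vmn1r71 and the NLRP family gene Nlrp4b, were 251.4 kb and 275.6 kb before Zscan4c, in the LoNRD. A set of protein-coding genes of chromosome 7 with names beginning with Zfp, Zscan or Zkscan was chosen after its values were seen. Of its 105 genes, 100 were in TiNRDs, and 8 of these were in late domains. Over all protein-coding genes, 16862 were in TiNRDs, and 1729 of these were in late domains. The 8 were the Zscan4 genes, which share a TiNRD and are not separate observations.

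The Zscan4 array is highly repeated, which bears on how reads could be placed. In the aligned parts of their gene bodies, with gap bases left out, Zscan4c and Zscan4f were 99.4% identical over 4381 bases. Zscan4c and Zscan4d were 97.2% identical over 4779, and Zscan4d and Zscan4f 97.1% over 4363. Of the 50-base words of the gene body, 10.098% were found once on the chromosome for Zscan4c, 50.5% for Zscan4d and 3.93% for Zscan4f, where the median protein-coding gene had 98.1%. With 100-base words the shares were 22.4%, 79.1% and 9.36%. In the whole TiNRD the share for 50-base words was 37.7%, against 89.6% in the LoNRD before it and 86.5% in the LoNRD after it. On autosomes, 18 of 1086 wrapping domains had a lower share. A/T content moved as well, with 58.3% of assembled bases in the TiNRD against 61.8% and 60.7% in the LoNRDs. The authors kept only reads above a minimum mapping quality, and how many fragments this left in the TiNRD is not known. The part of repeats and of A/T content in the tight call was not tested.

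**Figure D2:**
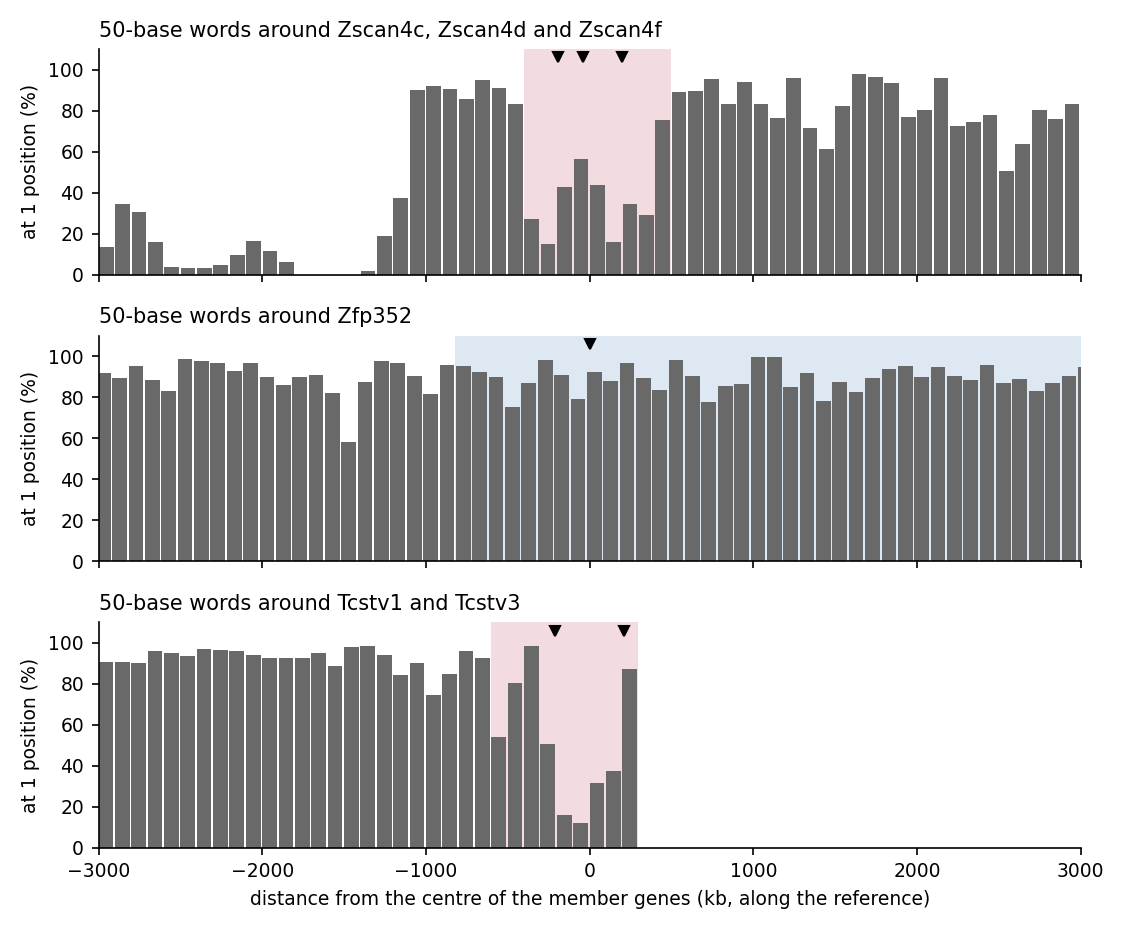
Share of 50-base words found at a single position of their own chromosome (%, bars from 0), in 100 kb bins against the distance in kb from the centre of the member genes. Shading marks the wrapping domain that holds the members (red, TiNRD; blue, LoNRD), triangles mark the members, and bins without assembled bases have no bar. Bins in the Zscan4 TiNRD range from 14.7% to 75.5%, in the Zfp352 LoNRD from 74.6% to 99.6% and in the Tcstv TiNRD from 11.97% to 98.6%.

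Zfp352 encodes a zinc finger protein that is expressed in 2-cell embryos. The gene is at chr4:90218820-90225702 on the plus strand, with 2 exons and 1653 coding bases. Its LoNRD, chr4:89400001-94900000, was 5500 kb long, longer than 89.7% of LoNRDs, and had a score of -0.99, with 88.5% of LoNRDs and 89.5% of the protein-coding genes in LoNRDs closer to 0. The TiNRDs on its 2 sides were weak, with scores of 0.18 and 0.24. The gene was 822.3 kb from the start of the LoNRD and 4677.7 kb from its end.

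The late domain of Zfp352, chr4:89450001-91250000, was 1800 kb long with a log2 value of -0.87, and 72.5% of late domains were closer to 0. It started 50 kb after the LoNRD did. Before it came 450 kb without a timing call, and then an early domain with a log2 value of 0.62. After a gap of 250 kb without a call came a further late domain of 2900 kb with a log2 value of -0.94. Of the LoNRD's length, 85.5% was late and 9.09% was early.

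Zfp352 was nearly alone in this stretch. The late domain held 1 other protein-coding gene, Dmrta1, a transcription factor gene with a DM domain, 524 kb away. The next gene after it was Elavl2, which encodes a neuronal RNA-binding protein, 1025.1 kb away in the same LoNRD and without a timing call. The LoNRD held 2.18 protein-coding genes per Mb, against 10 in the Zscan4 TiNRD and 21.1 in the Tcstv TiNRD. On the other side, the cell cycle inhibitor genes Cdkn2b and Cdkn2a, 907.8 kb and 924.2 kb away, were in the weak TiNRD. The body of Zfp352 was little repeated within its own chromosome, where 98.2% of its 50-base words and 99.1% of its 100-base words were at a single position. Copies on other chromosomes were not counted. The same share was 89.9% over the LoNRD, whose A/T content was 61.9%.

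Tcstv1 and Tcstv3 are members of a small family of variable 2-cell-stage transcripts and have also been tied to telomere length in ES cells. Tcstv1 is at chr13:119893388-119894785 on the minus strand, with 1 exon and 513 coding bases, and Tcstv3 is at chr13:120316878-120318178 on the plus strand, with 2 exons and 507 coding bases. Their bodies were 96.2% identical over 1300 aligned bases. Both were in the last domain of chromosome 13 in each list. The TiNRD, chr13:119500001-120400000, was 900 kb long with a score of 0.91, and 86.7% of TiNRDs scored lower, but only 54.3% of the protein-coding genes in TiNRDs were in a domain that did. It followed a LoNRD of 5200 kb with a score of -0.75.

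The early domain, chr13:119200001-120421639, had a log2 value of 1.03, with 81.1% of early domains closer to 0, but only 40.1% of the protein-coding genes in early domains. It covered all of the TiNRD and began 300 kb before it, within the LoNRD, where it touched a late domain with a log2 value of -0.75. It ran to the last base of the chromosome. The last timing domain was early on 20 of 21 chromosomes, while the last wrapping domain was a TiNRD on 9. At the end of chromosome 13, the early domain and TiNRD were therefore in the same state as the last domains of 8 other chromosomes.

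Tcstv1 and Tcstv3 shared both domains with 17 other protein-coding genes. AF067061 and AF067063, of the same family, were among them, as were BC147527, 12.9 kb from a member by midpoints, Gm20767, Gm21761 and D13Ertd608e. Zfp131, a zinc finger gene 102.5 kb before Tcstv1, was in the same TiNRD and early domain. No annotated protein-coding gene lay between Tcstv3 and the chromosome end, 104.1 kb away. How much of that stretch is assembled was not counted. In this TiNRD 19.3% of the bases are not assembled. Of its 50-base words 47.9% were at a single position of the chromosome, against 93.5% in the LoNRD before it. The A/T content was 56.8%, against 61.3% in that LoNRD. The gene bodies had 60.3% for Tcstv1 and 51.6% for Tcstv3. The part of repeats, gaps and A/T content in the tight call was not tested.

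**Figure D3:**
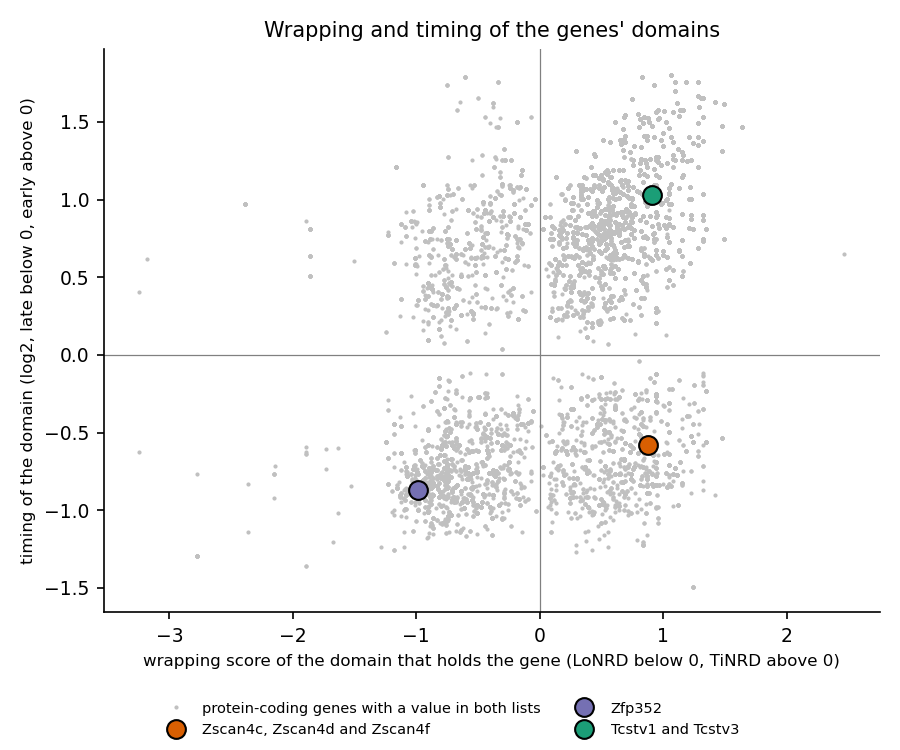
Score of the wrapping domain (horizontal, no unit) against the log2 value of the timing domain (vertical) for each protein-coding gene with a call in both lists (grey), with the domains of the members in colour. Genes of a domain share a point. Zscan4 (0.87, -0.58) lies among the tight and late genes, Zfp352 (-0.99, -0.87) among the loose and late ones and Tcstv (0.91, 1.03) among the tight and early ones.

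The members were closer to the borders of wrapping domains than the median gene. From gene midpoint to the nearer end of its NRD, Tcstv3 was at 82.5 kb, Zscan4c at 208.1 kb, Zscan4f at 299.9 kb, Zscan4d at 363.8 kb, Tcstv1 at 394.1 kb and Zfp352 at 822.3 kb. The median over the 6 was 331.8 kb, and the median over 21675 protein-coding genes in an NRD was 874.7 kb, with quartiles at 321.3 kb and 2013 kb. Each of the 6 was below that median, but 5 of them lay in TiNRDs of 900 kb, where no position is that far from an end. For these 5, domain length alone set the side of the median. Zfp352, in its longer LoNRD, was near the middle, with 48.0% of those genes nearer to a border. Neighbours in this order that are less than 1 bin of 100 kb apart cannot be ranked, which holds for Zscan4c and Zscan4f, Zscan4f and Zscan4d, and Zscan4d and Tcstv1. The border nearest to Tcstv3 was the end of the list, 21.6 kb before the chromosome end, and not a change to loose wrapping, which was 817.5 kb away.

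Distances to timing borders had another order. Tcstv3 was again the nearest at 104.1 kb, to the end of the chromosome, and Tcstv1 followed at 527.6 kb. Zfp352 was at 772.3 kb, Zscan4c at 1158.1 kb, Zscan4f at 1199.9 kb and Zscan4d at 1313.8 kb. Zscan4c and Zscan4f differed by less than 1 window of 50 kb. Some of these borders were edges of gaps without a call or the chromosome end. Counted to the nearest border between touching domains of opposite kinds, the distance was 694.1 kb for Tcstv1, 1117.5 kb for Tcstv3, 1199.9 kb for Zscan4f, 1436.2 kb for Zscan4d, 1591.9 kb for Zscan4c and 1622.3 kb for Zfp352, which became the farthest. The median over the 6 was 965.2 kb, against 504 kb over 21119 protein-coding genes in a timing domain, and 76.6% to 80.0% of those genes were nearer to a border than the Zscan4 genes. By either count the Zscan4 genes were farther from a border of timing than from one of wrapping.

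**Figure D4:**
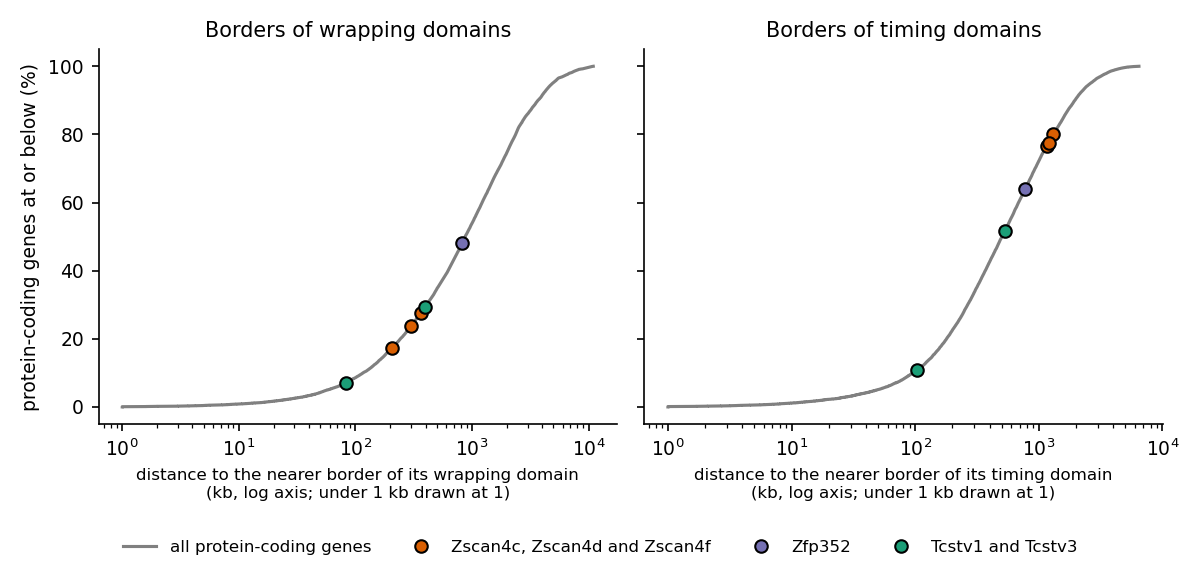
Percent of protein-coding genes (vertical) whose midpoint is at or below a given distance from the nearer border of its wrapping domain (left) or timing domain (right), in kb on log axes. Circles are the 6 members, coloured by locus. For wrapping borders all 6 are on the lower part of the curve (82.5 to 822.3 kb), 5 of them in domains of only 900 kb. For timing borders the 6 spread from 104.1 to 1313.8 kb.

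Further genes tied to the state were taken in 3 lists. They were relatives, in the same clusters except for Zfp353-ps, other genes active in 2-cell embryos or 2-cell-like cells, and factors that act on the state. These lists, too, were chosen with earlier results of these data known. Of 15 relatives, 11 were found in the annotation, and Tcstv2a, Tcstv2b, Tcstv2c and Tcstv4 were not. Of the 11, 5 were tight and late with the Zscan4 members, against 7.88% of all protein-coding genes. Another 4 were tight and early with the Tcstv members, against 66.9%. These 9 lay in the members' own TiNRDs, so they repeat the members' calls and are not further observations. Zscan4a (-0.65), only 3.4 kb from the border of the Zscan4 TiNRD, and Zfp353-ps (-0.76) were loose and late. Zfp353-ps is a processed pseudogene on chromosome 8, with 100% of its 50-base words at a single position of that chromosome. The highest scores were those of the Tcstv TiNRD, shared by AF067061, AF067063, BC147527 and Gm20767.

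Of 34 other genes of the program, 32 were found, and Dux and Duxf4 were not. These 32 were in 17 wrapping domains, and 24 of them were in TiNRDs, against 76.9% of all protein-coding genes. The tight and late combination held 12 of them, against 7.88% of all protein-coding genes, tight and early held 12, against 66.9%, and loose and late 6, against 14.2%. Loose and early held 1, against 1345 of all 21938 protein-coding genes, and 1 had no wrapping call, against 263 of 21938. In late domains there were 19 of 32, against 22.5%. The median log2 value was -0.58 over the list, against 0.97 over all protein-coding genes. That -0.58 is the value of the late domain shared by Tdpoz1 to Tdpoz5. Neighbouring copies share their timing domain, so the 19 genes are fewer observations than their number. The highest scores were those of Tmem92 (1.10, early), Duxf3 (1.00, early), the Dux copy found in the annotation, and Sp110 (0.97, late), an interferon-induced nuclear body gene. The lowest were those of Duxbl1 (-1.16, early), a relative of Dux, BC061212 (-0.92, late) and Ubtfl1 (-0.75, late), a gene needed by the preimplantation embryo.

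The 12 tight and late genes of this list came from 4 TiNRDs and were looked at after their values were seen. They were Tdpoz1 to Tdpoz5, with a score of 0.73 and a log2 value of -0.58, Obox1, Obox2 and Obox3, with 0.89 and -0.89, Pramef6, Pramef17 and Pramef25, with 0.21 and -0.62, and Sp110, with 0.97 and -0.84. The Obox genes are homeobox genes of the oocyte and early embryo. Obox5 and Obox6 were in the same TiNRD as the other Obox genes, but in an early domain with a log2 value of 1.501. Of the 50-base words of these 12 gene bodies, 0% to 61.9% were at a single position of their own chromosome (median 43.1%). The other 20 genes of the list ranged from 1.14% to 100% (median 79.2%), so low shares were not confined to the 12. As at Zscan4, the part of repeated sequence in the tight calls was not tested.

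Of the factors that act on the state, all 14 were found. All 14 were in early domains, against 73.7% of all protein-coding genes, and 12 were in TiNRDs, against 76.9%, so that 12 of 14 were tight and early, against 66.9% of all protein-coding genes. The highest scores were those of Chaf1a (1.42), a subunit of the chromatin assembly factor CAF-1, Ehmt2 (1.31), a histone H3K9 methyltransferase, and Kdm1a (1.29), a histone demethylase, all of which are known to restrain the state. Dppa2 and Dppa4, neighbouring genes for activators of Dux, shared a LoNRD with a score of -0.56 and an early log2 value of 0.69, and Rif1, which is known for setting replication timing, was in a TiNRD with a score of 0.19. The bodies of the 14 genes had 91.8% to 98.8% of 50-base words at a single position of their own chromosome.

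**Figure D5:**
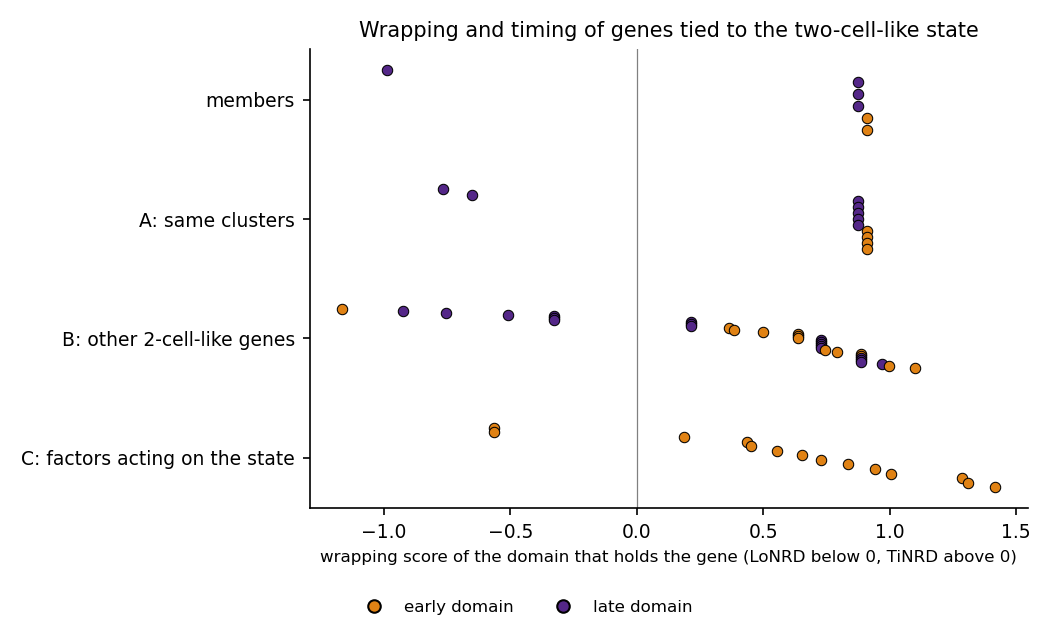
Score of the wrapping domain (horizontal, no unit) of each member and of each gene of the 3 lists with a wrapping call, coloured by timing (orange, early; purple, late). Points of a row are spread vertically by score. All 14 factors of list C are early and 12 of them are above 0, while purple points stand on both sides of 0 among the members and in lists A and B.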

How the data were processed

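Wrapping and timing of 6 genes were read from 2 deposited domain lists of R1 mouse ES cells. The authors trimmed reads with cutadapt 4.3, aligned them to mm10 with Bowtie2 2.5.1, and filtered out duplicate and poorly mapped reads with Picard and SAMtools. For the wrapping list, fragments of 140 to 250 bp and of 50 to 140 bp were compared in 100 kb bins (bedtools 2.30.0 is named in the labels), and the deposited score of a domain is on the z-score scale of the authors' smoothed index. For the timing list, the deposited log2 values of the authors are log2((S1+S2)/(S3+S4)) in 50 kb windows after scaling and quantile normalization. Domains were called with homer2. How a domain's value was made and whether experiments were pooled is not given in the sources used here.

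Genes (GENCODE M21, GRCm38, the assembly of mm10) were assigned by midpoint. The depth behind a domain's value is unknown from these lists, and all comparisons are descriptions without a test. Uniqueness of words was counted within the gene's own chromosome on both strands, a measure chosen here and not the authors' alignability. R1 cells are not of C57BL/6J, the strain of the reference, and their copy numbers were not measured here. The lists of related genes and the 6 genes were chosen with earlier results of these data known. Named genes were the members, up to 3 coding genes nearest on each side and sharing both domains, list genes in the members' domains, and the 3 highest and lowest scores of each list. The alternatives were the start site or most of the gene body for assignment, other definitions of borders, autosomes or all genes as background, other ranks, 100-base words and a 200-base promoter window. Python 3.11.15, numpy 2.4.6, scipy 1.17.1, numba 0.67.0, Biopython 1.88 and matplotlib 3.10.9 were used, and assignment and word counts were tested on simulated data. Both value columns were used. The other libraries of the series were not analysed here.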

Additional observations from a re-analysis of the deposited data

How the results depend on the processing

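No paired analysis was possible because the lists hold no replicate values. The domains of all 6 members stayed the same in kind when the start site or most of the gene body decided, and the promoter matches did so with 200 bases. Of 71 alternative values over 31 results, 47 moved by less than the limit set for them and 24 moved by more. None could change sign, as all were counts, distances or shares. The limits differed between results, so 47 is no measure of stability. The members' median share of words at a single position went from 51.0% to 76.3% with 100-base words and counted among the 47. The share of genes in TiNRDs went from 76.9% to 78.6% on autosomes and counted among the 24. With only borders between touching domains of opposite kinds, the median distance to a timing border was 1318 kb. The share of genes in TiNRDs was 78.6% on autosomes and 68.5% over all annotated genes, and that in early domains 75.3% and 61.9%. Weighted by length, the ranks by wrapping score were 63.7% (Zscan4), 74.8% (Zfp352) and 66.7% (Tcstv), and by timing 16.7%, 64.7% and 59.7%. Among genes they were 51.1% (Zscan4) and 54.3% (Tcstv) for wrapping and 26.8%, 76.7% and 40.1% for timing. The cause of these moves was not tested. By start site, an alternative added after the data were seen, Zmym2 moved to a LoNRD (-0.16), which left 11 of 14 factors in TiNRDs. Single calls without read numbers limit every value here, as do bins of 100 and 50 kb.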

Other observations

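Domains with a low share of 50-base words found once on their chromosome, as at Zscan4 and Tcstv, had median scores farther from 0 than the other domains of their kind. The 10 TiNRDs with the highest scores among the 66 that lay wholly in late domains had shares between 1.52% and 42.2%, and the Zscan4 TiNRD, with 37.7%, was among them. Of these 66 TiNRDs, 27 had a share under 50% and a median score of 0.61, while 39 had a share of 50% or more and a median score of 0.15. Of the 27, 3 scored at or below 0.24, the median of all 66. On autosomes alone these were 8 and 38 TiNRDs with median scores of 0.84 and 0.14. Among the other TiNRDs, the median score was 0.83 for 33 domains under 50% and 0.47 for 533 domains at or above it, and among LoNRDs it was -1.01 for 57 domains and -0.45 for 554. On autosomes the medians were 0.91 for 9 and 0.48 for 506 of these TiNRDs, and -0.97 for 12 and -0.45 for 513 LoNRDs. These values were looked at after those of the Zscan4 TiNRD were known, are given as a description, and no cause was tested.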
